A study of Mus musculus with 2 samples.

Results

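The miR-181 family was examined in small RNA sequencing data of J1 mouse embryonic stem (ES) cells. The members are the 6 hairpins Mir181a-1, Mir181a-2, Mir181b-1, Mir181b-2, Mir181c and Mir181d, out of 1174 mouse miRNA hairpins of the GENCODE vM21 annotation. Their reads were found by matching every distinct sequence read from the libraries, called a tag, to the hairpins without mismatch. Of 1766298 distinct tags in both libraries together, 113 matched a miR-181 hairpin. With DMSO they carried 50818 of 18870345 clean reads, and with AICAR 85951 of 21091226. Each hairpin can give a mature miRNA from its 5′ side (5p arm) and from its 3′ side (3p arm). In all, 10 miR-181 arms had reads, of 1148 arms in the whole data set, of which 7 were tested, among 509 tested arms in all. An arm was tested when it reached 1 RPM (a read per 1000000 clean reads) in at least 1 library. The other 3 were miR-181a-1-3p, miR-181b-1-3p and miR-181b-2-3p, with 0 to 3 reads per library.

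The study treated J1 cells, an ES cell line, for 24 h with AICAR at 1 mM or with the same volume of its solvent DMSO. The paper names gelatin-coated plates and LIF for follow-up assays on these cells, and refers to earlier work for their culture. AICAR is a small molecule that activates AMP-activated protein kinase, a sensor of cellular energy. There was 1 library per treatment, and the control library, titled J1_U, carries the treatment label DMSO. No difference below therefore has a replicate check, and every interval and p-value covers counting error only and compares these 2 libraries, not the treatments.

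A miRNA hairpin is cut from a longer transcript by Drosha and then by Dicer into a short duplex, 1 strand of which is usually kept in an Argonaute protein and pairs with target mRNAs through its seed, bases 2 to 8. The miR-181 family is known from lymphocytes, where miR-181a is a well studied regulator of T cell receptor signalling, and from brain and muscle. It comes from 3 loci, each with 2 hairpins side by side, and the miR-181a and miR-181b copies of different loci give the same 5p miRNA.

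The mature 5p sequences are shown first, because they carry nearly all reads of the family. They are RefSeq sequences (GRCm38.p6), with the seed in capitals.
miR-181a-5p: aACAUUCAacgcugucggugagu
miR-181b-5p: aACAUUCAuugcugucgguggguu
miR-181c-5p: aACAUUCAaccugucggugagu
miR-181d-5p: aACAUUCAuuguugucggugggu
All 4 have the same seed, and 0 of the other arms with reads had it in their most abundant tag. After the seed, miR-181a-5p is most like miR-181c-5p, at 1 edit (a changed, added or lost base), and miR-181b-5p is most like miR-181d-5p, at 2 edits. The miRNAs that lie side by side are less alike, with 4 edits between miR-181a-5p and miR-181b-5p and 5 between miR-181c-5p and miR-181d-5p.

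The 3p sequences are the ones that tell the copies apart and were used to compare the loci. Capitals again mark bases 2 to 8.
miR-181a-1-3p: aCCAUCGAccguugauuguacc
miR-181a-2-3p: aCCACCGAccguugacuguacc
miR-181c-3p: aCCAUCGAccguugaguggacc
miR-181b-1-3p: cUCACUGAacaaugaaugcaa
miR-181b-2-3p: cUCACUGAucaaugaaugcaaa
miR-181d-3p: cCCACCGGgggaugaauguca
Counted from the 5′ end in DNA letters, miR-181a-1-3p and miR-181a-2-3p differ by T5C and T16C, and miR-181a-1-3p and miR-181c-3p differ by T16G and T19G. Bases 2 to 8 are shared by miR-181a-1-3p and miR-181c-3p and by both miR-181b copies, and differ between the others.

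The positions are given for GRCm38. Mir181a-1 (chr1:137966455-137966541, plus strand) and Mir181b-1 (chr1:137966639-137966718, plus strand) lie 97 nt apart, in an intron of the noncoding gene Gm4258 and overlapping an exon of the lincRNA A430106G13Rik on the same strand. Mir181a-2 (chr2:38852735-38852810, plus strand) and Mir181b-2 (chr2:38853830-38853918, plus strand) lie 1019 nt apart, opposite to an intron of Nr6a1, which encodes an orphan nuclear receptor. Mir181c (chr8:84178873-84178961, minus strand) and Mir181d (chr8:84178716-84178787, minus strand) lie 85 nt apart in an intron of Nanos3, a germ cell gene, on the same strand. The hairpins of the chromosome 8 locus, which gave most of the reads, and of Mir181a-2, whose 3p arm fell, are shown with the most abundant tag of each arm in capitals.
Mir181c: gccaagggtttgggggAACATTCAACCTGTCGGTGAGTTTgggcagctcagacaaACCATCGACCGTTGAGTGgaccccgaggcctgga
Mir181d: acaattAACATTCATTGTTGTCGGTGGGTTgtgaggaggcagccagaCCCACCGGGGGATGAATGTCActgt
Mir181a-2: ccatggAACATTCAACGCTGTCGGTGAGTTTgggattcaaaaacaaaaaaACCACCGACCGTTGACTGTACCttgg

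The 5p members divided by their loci. miR-181d-5p and miR-181c-5p of chromosome 8 were 1.58 and 1.55 times higher in the AICAR library, whereas miR-181a-5p and miR-181b-5p, which come from chromosomes 1 and 2, were at 0.666 and 0.687 times the DMSO level. For each of these 5p miRNAs, edgeR's exact test gave a p above 0.01 with an assumed coefficient of variation between replicates of 0.2 or 0.4. Their narrow intervals given below leave such variation out. Among the 3p arms, miR-181a-2-3p of chromosome 2 fell to 0.193 times its DMSO level. This was the only change of a member past the thresholds used here, 2-fold up or down and p no larger than 0.01. The paper already lists this arm among its down-regulated miRNAs from the same libraries, with a fold change somewhat further below 1. The arm met the filter of 1 RPM in the DMSO library only, where it was higher. Of all 509 tested arms, 49 (9.63%) fell and 56 (11%) rose past both thresholds, and with p up to 0.05 these numbers were 52 and 61.

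miR-181d-5p was by far the most abundant member. It had 44522 reads (2359 RPM) with DMSO and 78685 reads (3731 RPM) with AICAR, and ranked 13 and 12 among the 509 tested arms. The AICAR library was the higher one, with a fold change of 1.58 (95% exact interval 1.56 to 1.60). The 3 arms outside the family with the most similar levels in both libraries, by distance on the log2(RPM + 1) scale over these 2 libraries, were miR-295-3p, miR-191-5p and let-7f-5p. Their fold changes were 1.78, 1.33 and 1.63.

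Its neighbour miR-181c-5p had 2608 reads (138.2 RPM) with DMSO and 4505 reads (213.6 RPM) with AICAR. The fold change was 1.55 (1.47 to 1.62), which the interval does not separate from that of miR-181d-5p. The odds of a read being miR-181d-5p and not miR-181c-5p differed between the libraries by a ratio of 1.02 (0.973 to 1.08). With the reference tags only this ratio was 0.930 (0.870 to 0.993), an interval that lies below 1.

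In contrast, miR-181b-5p was counted with 1443 reads (76.5 RPM) with DMSO and 1108 reads (52.5 RPM) with AICAR. Its fold change was 0.687 (0.635 to 0.744). For miR-181a-5p there were 974 reads (51.6 RPM) and 725 reads (34.4 RPM), which gives a fold change of 0.666 (0.604 to 0.734). Both were lower in the AICAR library, by amounts that their intervals do not separate, and neither reached the fold threshold. The ratio of odds between miR-181b-5p and miR-181a-5p was 1.03 (0.910 to 1.17).

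The difference between the 5p miRNAs of chromosome 8 and those of chromosomes 1 and 2 does not depend on how the libraries are scaled, because it can be taken as a ratio within each library. The odds of miR-181d-5p over miR-181a-5p were 2.37 times higher in the AICAR library (2.15 to 2.62), and those of miR-181d-5p over miR-181b-5p 2.30 times higher (2.13 to 2.49). For miR-181c-5p the ratios were 2.32 (2.08 to 2.59) over miR-181a-5p and 2.25 (2.05 to 2.47) over miR-181b-5p. These are 4 of the 6 possible pairs, and each of their intervals lies above 1. Over all counted tags, the intervals of the remaining 2 pairs, given above, include 1.

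Summed over the family, the 5p reads went from 2626 RPM to 4031 RPM, a ratio of 1.54 (1.52 to 1.55). Within this sum, miR-181d-5p took 89.9% (95% Wilson interval 89.6 to 90.1) with DMSO and 92.6% (92.4 to 92.7) with AICAR. The share of miR-181c-5p was 5.26% and 5.30%. The share of miR-181b-5p was 2.91% and then 1.30%, and that of miR-181a-5p 1.97% and then 0.853%.

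**Figure D1:**
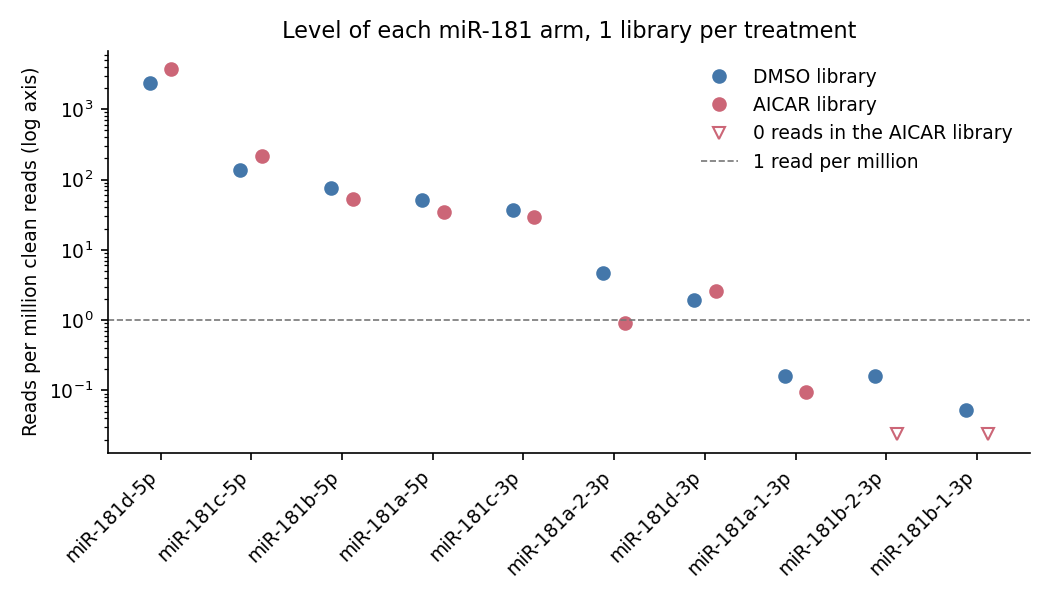
The level of each of the 10 miR-181 arms in RPM (log axis) in the DMSO library (blue) and the AICAR library (red), 1 library each. Filled points are measured levels, open triangles mark 0 reads and are drawn at a level below 1 read, and the dashed line is the 1 RPM filter. miR-181d-5p stands far above every other member, and miR-181a-2-3p shows the widest gap between the libraries among the 7 tested arms.

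By level, the order in the DMSO library was miR-181d-5p, miR-181c-5p, miR-181b-5p, miR-181a-5p, miR-181c-3p, miR-181a-2-3p and miR-181d-3p, and the 95% exact Poisson intervals of neighbours in this order did not overlap. In the AICAR library the intervals of miR-181a-5p (31.9 to 37.0 RPM) and miR-181c-3p (27.5 to 32.2 RPM) overlapped, and miR-181d-3p stood above miR-181a-2-3p. The 3 untested arms could not be ordered in either library.

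Across the 509 tested arms, 289 (56.8%) were higher in the AICAR library and the median fold change was 1.10. Of the 7 tested members, 3 were higher and 4 lower, with a median of 0.819. By the fold alone, 61 arms (12%) were at least 2-fold higher and 52 (10.2%) at most 0.5-fold. Of the 7 members 0 were past the fold upward and 1 downward, with or without the p, which is near this background. The median log2 fold change of all tested arms was 0.13 relative to clean reads and -0.31 relative to the reads assigned to miRNAs, since miRNAs took 11.5% of clean reads with DMSO and 15.7% with AICAR. On the latter scale 21 arms were called up and 113 down. The fold changes there were 1.16 for miR-181d-5p and 1.13 for miR-181c-5p, still above 1, and 0.489 for miR-181a-5p and 0.504 for miR-181b-5p, of which miR-181a-5p is past the fold threshold.

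**Figure D2:**
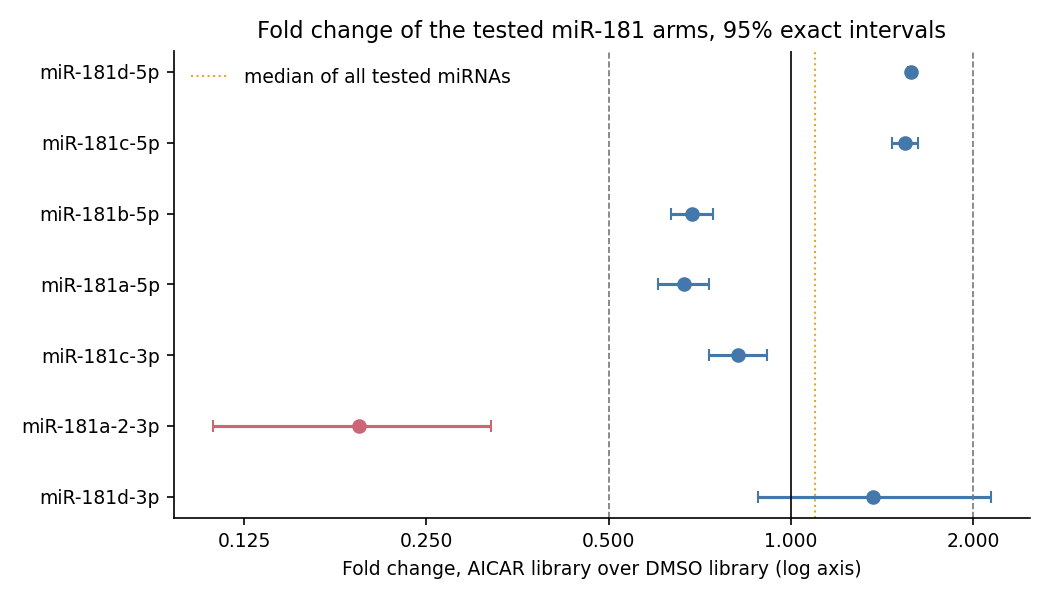
Fold change of the 7 tested miR-181 arms (AICAR library over DMSO library, log axis) with 95% exact intervals for counting error. Solid, dashed and dotted lines mark a fold change of 1, the thresholds of 0.5 and 2, and the median of all tested miRNAs. Only miR-181a-2-3p (red, 0.193) lies past a threshold, while miR-181d-5p (1.58) and miR-181c-5p (1.55) lie to the right of 1 and miR-181a-5p (0.666) and miR-181b-5p (0.687) to the left.

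The 3p arms separated the copies. miR-181a-2-3p had 88 reads (4.66 RPM) with DMSO and 19 reads (0.901 RPM) with AICAR. It reached 1 RPM in the DMSO library only, so it entered the test through the library in which it was higher. Its p and its call carry this limit. This fold change of 0.193 (0.111 to 0.320), a log2 value of -2.37, gave p = 1.37e-13 by Fisher's exact test (two-sided), which sets these libraries and not the treatments against each other. Both of its main tags were lower, the 22 nt tag with 41 and 10 reads and the 21 nt tag with 35 and 3 reads. Under edgeR's exact test with an assumed coefficient of variation of 0.2 between replicates its p was 1.85e-05, and with 0.4 it was 0.0132, which no longer passes.

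Its chromosome 1 counterpart, miR-181a-1-3p, had 3 reads and 2 reads, a ratio of 0.597 (0.0498 to 5.21), so that no change was detectable at this depth. miR-181b-1-3p had 1 read and 0 reads, and miR-181b-2-3p had 3 reads and 0 reads. With 3 reads, or 0.142 RPM, taken as the limit that a count of 0 allows in the AICAR library, no change of the miR-181b 3p arms was detectable.

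On chromosome 8, miR-181c-3p had 685 reads (36.3 RPM) with DMSO and 627 reads (29.7 RPM) with AICAR, so that the fold change was 0.819 (0.734 to 0.914). miR-181d-3p had 36 reads (1.91 RPM) and 55 reads (2.61 RPM), so that the fold change was 1.37 (0.882 to 2.14), whose interval includes 1. With tags of 21 nt or more it was 1.96 (1.055 to 3.79), on 16 and 35 reads. It was 1.97 (1.04 to 3.90) with the 5′ end of the reference tag alone and 1.91 (1.004 to 3.79) with the reference tag only. Under the other choices of tags and denominators the interval included 1. The 3p arm of Mir181c was thus lower and its 5p arm higher in the AICAR library, a divergence that depended on tag length, as described further on.

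Taken by locus, the 3p reads of chromosome 1 were 4 with DMSO and 2 with AICAR. Those of chromosome 2 were 91 and 19, so that the fold change was 0.187 (0.108 to 0.309) with p = 1.61e-14 by the same exact test. With an assumed coefficient of variation of 0.4 in edgeR it no longer passed the threshold. Of these reads, 88 and 19 were miR-181a-2-3p, so the chromosome 2 values here are no second observation. They carry the limit given above, that this arm reached 1 RPM only in the library where it was higher. Those of chromosome 8 were 721 and 682, so that the fold change was 0.846 (0.761 to 0.941). Chromosome 2 held 11.2% (9.17 to 13.5) of all 3p reads with DMSO and 2.70% (1.74 to 4.18) with AICAR, and chromosome 8 held 88.4% and 97.0%. The odds of chromosome 8 over chromosome 2 were 4.53 times higher in the AICAR library (2.70 to 7.95), and 2.81 times higher (1.36 to 6.40) with the reference tags only. Neither comparison with chromosome 1 could be resolved, since the ratios were 0.421 (0.0556 to 4.97) for chromosome 2 over chromosome 1 and 1.89 (0.270 to 20.97) for chromosome 8 over chromosome 1. The ratio of miR-181a-2-3p over miR-181a-1-3p was 0.328 (0.0350 to 4.18), and that between the miR-181b copies has no value, because both had 0 reads in the AICAR library. These make 5 comparisons between copies or loci.

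The balance between the arms also differed between members. For miR-181d, 1237 reads of the 5p arm were found per read of the 3p arm in the DMSO library (893.2 to 1766), and 1431 in the AICAR library (1099 to 1899). The order of the libraries turned under other choices of tags. With the 5′ end of the reference tag alone the ratio was 2957 and 2376, with tags of 21 nt or more 2677 and 2219, and with the reference tags only 2334 and 2051. For miR-181c the ratio was much lower, 3.81 (3.50 to 4.15) and 7.19 (6.61 to 7.82). For miR-181a, with the 3p reads of both copies summed, it was 10.7 (8.63 to 13.4) and 34.5 (22.4 to 56.1). The intervals of the 2 libraries overlapped for miR-181d and were apart for miR-181c and miR-181a. miR-181b had 361 reads of the 5p arm per read of the 3p arm in the DMSO library (141 to 1326), and in the AICAR library it had 1108 reads of the 5p arm and 0 of the 3p arms.

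The most abundant tags of 3 of the 4 5p miRNAs were longer than the RefSeq sequence, with the same 5′ end. They are shown in DNA letters as read, with bases 2 to 8 in capitals.
miR-181a-5p tag: aACATTCAacgctgtcggtgagttt
miR-181b-5p tag: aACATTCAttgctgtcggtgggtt
miR-181c-5p tag: aACATTCAacctgtcggtgagttt
miR-181d-5p tag: aACATTCAttgttgtcggtgggtt
The miR-181d-5p tag has 24 nt, 1 nt more than in RefSeq, and took 78.6% of the reads of the arm with DMSO and 83.4% with AICAR. The miR-181c-5p tag (24 nt) and the miR-181a-5p tag (25 nt) are each 2 nt longer than in RefSeq. The miR-181c-5p tag took 53.6% and 62.5% of its arm, and the miR-181a-5p tag 60.8% and 66.8%. The miR-181b-5p tag has the length given by RefSeq and took 68.8% and 70.7%.

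The 5′ ends, which set the seed, were nearly uniform on the 5p arms. Of the miR-181d-5p reads, 99.6% with DMSO and 99.7% with AICAR began at the same base, and for the other 5p miRNAs the share was between 97.9% and 99.7%. The 3p arms were less uniform. miR-181c-3p began 1 nt further upstream in 18.7% (15.9 to 21.8) and 20.9% (17.9 to 24.3) of its reads, which moves the seed by 1 base, and miR-181d-3p began 1 nt further downstream in 55.6% (39.6 to 70.5) and 36.4% (24.9 to 49.6).

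miR-181c-3p was the only tested member whose most abundant tag over both libraries was shorter than in RefSeq. This tag had 18 nt, 4 nt fewer than RefSeq. That is the shortest length kept in the libraries, so any shorter tags of the arm are missing from its counts. The 18 nt tag is given with bases 2 to 8 in capitals.
miR-181c-3p tag: aCCATCGAccgttgagtg
This tag had 344 reads with DMSO and 203 with AICAR. The tag of the full 22 nt of RefSeq had 53 and 119 reads, so that the fold change was 2.01 (1.44 to 2.83). The short and the full tag of the same arm were thus shifted in opposite directions.

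**Figure D3:**
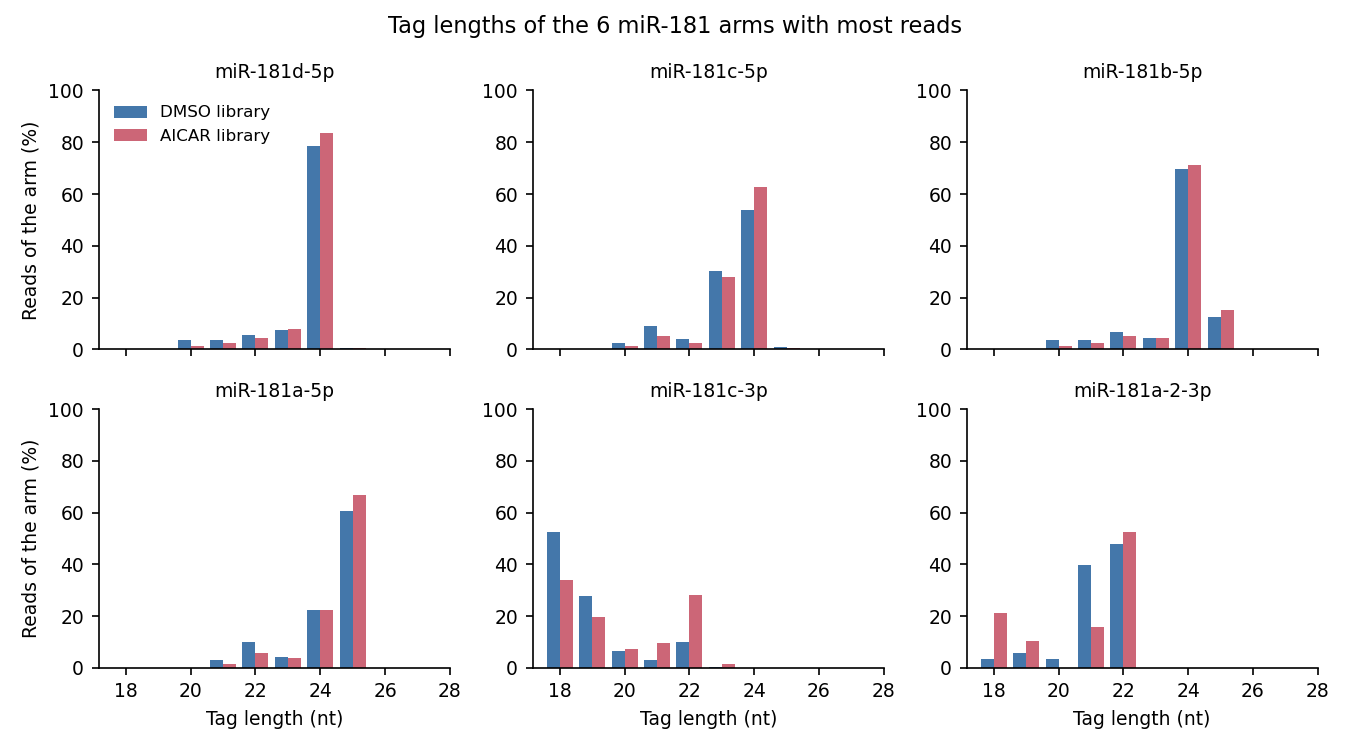
Share of the reads of an arm (percent) at each tag length (nt) for the 6 miR-181 arms with the most reads, in the DMSO library (blue bars) and the AICAR library (red bars). The 5p arms peak at 24 or 25 nt in both libraries, whereas miR-181c-3p peaks at 18 nt, with a larger share at 22 nt in the AICAR library (28.1%) than in the DMSO library (10.1%). As 18 nt is the shortest length kept in the libraries, any shorter tags are not seen.

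Split at 21 nt, miR-181c-3p had 592 and 380 reads under 21 nt, so that the fold change was 0.574 (0.504 to 0.654), and 93 and 247 reads of 21 nt or more, so that the fold change was 2.38 (1.87 to 3.05). Its lower total in the AICAR library therefore held for the short tags only, which made up 86.4% of the arm with DMSO and 60.6% with AICAR. With the short tags left out, the 3p reads of chromosome 8 were 2.32 times higher in the AICAR library. The ratio of 5p to 3p reads of miR-181c was then 27.4 with DMSO and 18.01 with AICAR, the opposite order to that over all tags.

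Short tags were scarcer in the AICAR library in general. Reads under 21 nt made up 21.3% of all clean reads with DMSO and 16.3% with AICAR. Over all miRNA arms outside the family, the fold change was 0.548 (0.544 to 0.552) for tags under 21 nt and 1.44 (1.44 to 1.45) for longer ones. miR-181d-5p had 0.546 (0.505 to 0.591) and 1.62 (1.60 to 1.64). For its short tags the interval includes the value of the other arms, and for its longer tags it lies above that value.

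The fall of miR-181a-2-3p was seen in its longer tags. Its reads of 21 nt or more went from 77 to 13, so that the fold change was 0.151 (0.0770 to 0.274), and those under 21 nt from 11 to 6, with a fold change of 0.488 (0.148 to 1.44). Restricted to tags of 21 nt or more, the odds of chromosome 8 over chromosome 2 were 15.8 times higher in the AICAR library.

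At 23 and 24 nt the fold changes of both 5p miRNAs of chromosome 8 lay above those of miR-181a-5p and miR-181b-5p, with intervals that did not overlap. At 24 nt the fold change was 1.68 (1.66 to 1.70) for miR-181d-5p, 1.80 (1.69 to 1.92) for miR-181c-5p and 1.65 (1.64 to 1.66) for all arms outside the family. At this length it was 0.667 (0.540 to 0.822) for miR-181a-5p and 0.705 (0.641 to 0.774) for miR-181b-5p. At 22 nt the values were 1.27 (1.21 to 1.34) for miR-181d-5p, 1.00 (0.759 to 1.32) for miR-181c-5p, 0.391 (0.266 to 0.568) for miR-181a-5p, 0.546 (0.387 to 0.765) for miR-181b-5p and 1.47 (1.46 to 1.47) for the arms outside the family. At 21 and 22 nt miR-181d-5p was still apart from both, whereas the interval of miR-181c-5p overlapped that of miR-181b-5p. At 25 nt the values were 1.18 (1.01 to 1.39) for miR-181d-5p, 0.895 (0.457 to 1.75) for miR-181c-5p on 20 reads in each library, 0.732 (0.647 to 0.826) for miR-181a-5p and 0.845 (0.681 to 1.05) for miR-181b-5p, and of the pairs between the loci only miR-181d-5p and miR-181a-5p were apart. The fold changes of miR-181a-5p and miR-181b-5p lay below those of the arms outside the family at 22 and 24 nt, while that of miR-181d-5p was near the latter at 24 nt and below them at 22 nt. miR-181c-3p at 22 nt, with 2.28 (1.72 to 3.06), lay above them.

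**Figure D4:**
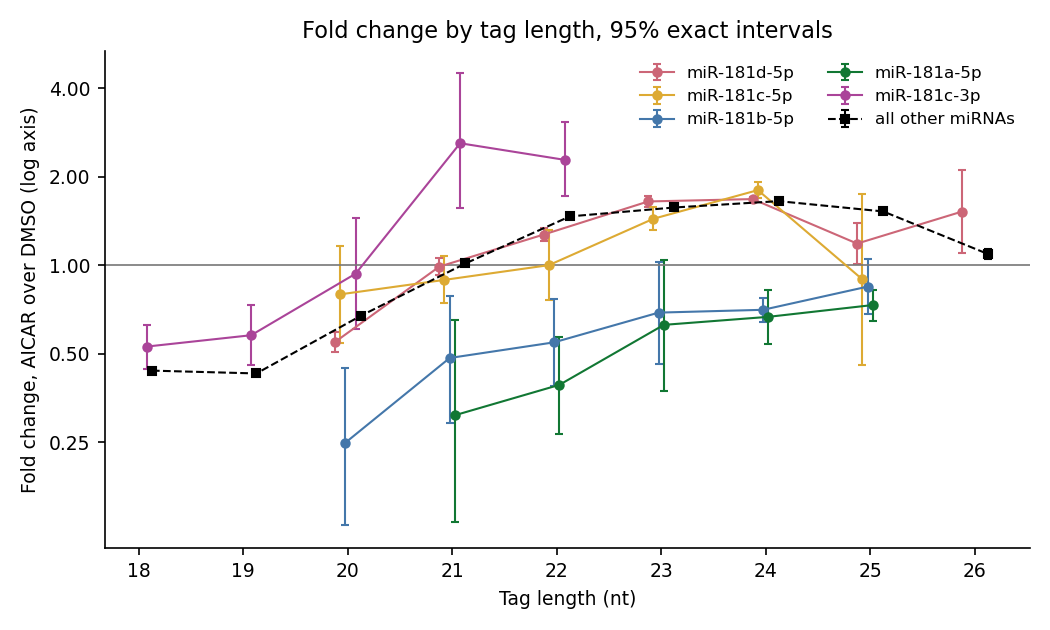
Fold change (AICAR library over DMSO library, log axis) by tag length in nt for 5 miR-181 arms and for all miRNA arms outside the family (black, dashed), with 95% exact intervals for counting error. Only lengths with at least 20 reads over both libraries and reads in each are drawn. miR-181d-5p and miR-181c-5p lie above 1 at 23 and 24 nt (1.65 and 1.44, then 1.68 and 1.80), as do the other arms (1.57 and 1.65), whereas miR-181a-5p and miR-181b-5p stay below 1 at each length drawn.

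Reads of the abundant miR-181d-5p that carry a sequencing error at 1 position would be counted as miR-181b-5p. The 24 nt tags of miR-181b-5p and miR-181d-5p differ at 1 base only, C12T counted from the 5′ end. The miR-181b-5p tag had 993 reads with DMSO and 783 with AICAR, or 2.84% and 1.19% of the miR-181d-5p tag. The 9 other variants of the miR-181d-5p tag with a T read as C had 2 to 18 reads in the DMSO library (median 5) and 5 to 26 in the AICAR library (median 6). Over all 71 other variants with 1 changed base, the medians were 3 and 5. The variant with the most reads was T24A, the 23 nt tag with an A at its end, with 2247 and 3750 reads.

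**Figure D5:**
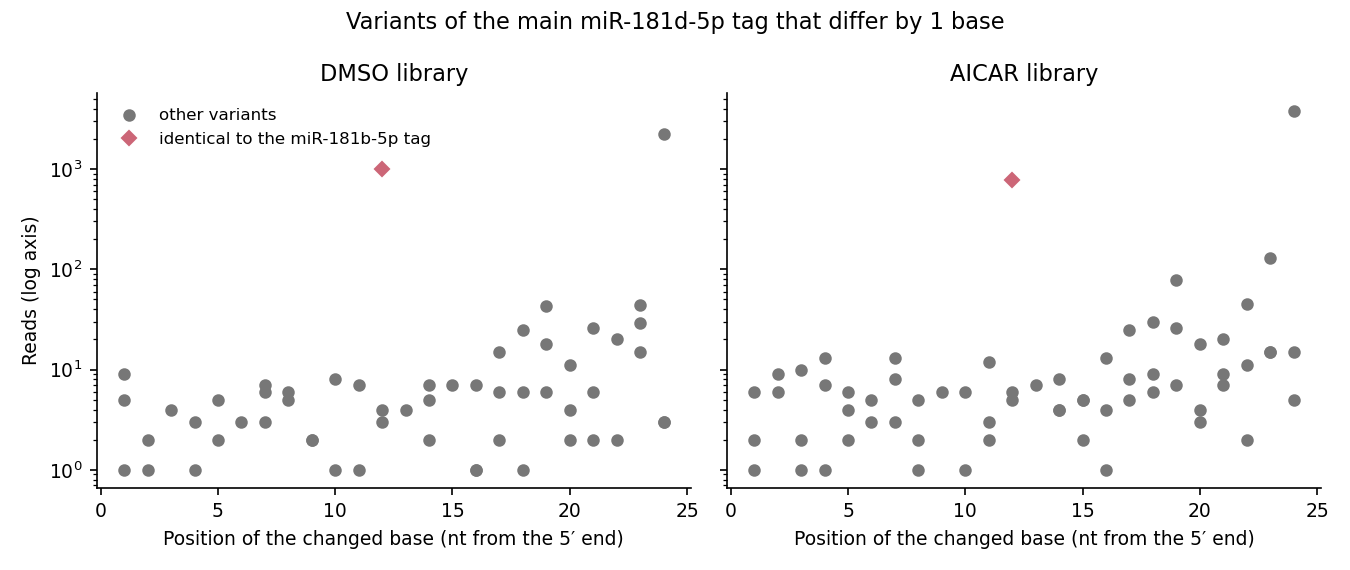
Reads (log axis) of each variant of the 24 nt miR-181d-5p tag with 1 changed base, by the position of that base in nt from the 5′ end, in the DMSO library (left) and the AICAR library (right). Variants with 0 reads, 16 of 72 with DMSO and 7 of 72 with AICAR, are not drawn. The variant identical to the miR-181b-5p tag (red diamond, 993 and 783 reads) stands far above every other variant except the one at position 24.

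The 5p reads of miR-181a could not be divided between its copies, since each of its 9 tags matches both hairpins. For miR-181b, 10 tags with 1253 and 931 reads match both hairpins, 1 tag with 1 and 0 reads matches Mir181b-1 alone, and 2 tags with 189 and 177 reads match Mir181b-2 alone. The latter reads lie nearly all on the 24 nt tag with 1 more T (179 and 170 reads), which makes 18.03% and 21.7% of the 24 nt tag. On the miR-181d-5p tag a T that the hairpin does not encode was added at 12.2% and 15.4%, so reads of Mir181b-2 and miR-181b-5p reads with an added T cannot be told apart. When 1 mismatch was allowed, reads of miR-181d-5p with this added T also counted as miR-181b-5p, whose fold change then turned from 0.687 to 1.73.

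The cell type label was checked on lists of marker miRNAs of ES cells and of some other cell types, and no list was made for muscle. The 6 ES cell miRNAs of the miR-290 cluster summed to 30450 RPM with DMSO and 52620 RPM with AICAR, and each was above 10 RPM. Of 5 blood cell hairpins, Mir223 had 0 reads and the miRNAs of the other 4 summed to 28.8 and 24.1 RPM. miR-142a-5p had 14.2 and 12.7 RPM and miR-150-5p 12.35 and 7.97 RPM, both lower in the AICAR library. miR-155-5p, with 1.96 and 2.47 RPM, and miR-451a, with 0.371 and 0.996 RPM, were higher there. miR-146a-5p, with 2 and 11 reads, is not in these sums. The neural list was not near 0, since miR-9-5p, miR-124a-1-3p and miR-128-3p summed to 1248 and 1417 RPM. Of this sum miR-128-3p made 976.4 and 995.8 RPM, miR-124a-1-3p 255 and 407 RPM, and miR-9-5p 16.0 and 13.9 RPM. For fibroblasts, Mir214 had 0 reads, miR-199a-3p had 91.9 and 90.9 RPM and miR-10b-5p 0.795 and 0.664 RPM. The part of such cells in the miR-181 values was not tested.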

How the data were processed

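J1 cells treated with DMSO or AICAR gave 1 small RNA library each, and the libraries were grouped by their treatment label. The authors removed low-quality reads, contaminants and reads under 18 nt, and deposited counts of clean reads per distinct tag with its length, without normalization or alignment. The adaptor trimmer is not given in the sources used here. Totals of the counts (18870345 and 21091226) served as depth, so that 1 read corresponds to 0.0530 RPM (DMSO) and 0.0474 RPM (AICAR).

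Exact matches of each tag to 1174 GENCODE vM21 hairpins were found with Python 3.11.15. The tag with the most reads on an arm was its reference, and tags starting within 2 nt and ending within 4 nt of it were counted (99.1% and 99.7% of the family's matching reads). No tag fitted more than 1 miR-181 arm or a hairpin outside the family. Matching to the whole genome was not done here. Arms with at least 1 RPM in either library were tested by a two-sided Fisher's exact test against all other clean reads (scipy 1.17.1), with exact binomial intervals of ratios, exact conditional intervals of odds ratios and Wilson intervals of shares, all at 95% and for counting error only, since reads without molecular identifiers are not independent molecules. The study names more than 1 p threshold for its lists, and the stricter was used. The code was tested on simulated data.

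The members, the lists of marker miRNAs and the tests were chosen with earlier results of these data known. Every miR-181 arm with a read is named, together with other arms sharing the 5p seed, the 3 arms nearest in level to the most abundant member, and marker miRNAs. The 6 odds ratios between 5p miRNAs, the splits by length and the variant counts were added after the values were seen. Alternatives were other denominators (including TMM of edgeR 4.0.16), other assignments of tags, tags of at least 21 nt, 1 mismatch, other filters and thresholds, and edgeR's exact test with an assumed variation.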

Additional observations from a re-analysis of the deposited data

How the results depend on the processing

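Over 13 alternatives each, miR-181d-5p stayed between 1.16 and 1.68, miR-181c-5p between 1.13 and 1.80 and all 5p reads between 1.13 and 1.64. Each stayed above 1 and within the fold thresholds. Of these alternatives, the edgeR settings change only the p. Dividing tags that fit several arms changed no value, since no miR-181 tag fitted more than 1 arm. miR-181a-5p ranged from 0.489, past the threshold relative to miRNA reads, to 0.732. miR-181a-2-3p stayed between 0.142 and 0.218, and the chromosome 2 3p reads, with 12 alternatives, between 0.137 and 0.208. Both, at 0.193 and 0.187, no longer passed with an assumed coefficient of variation of 0.4.

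With 1 mismatch allowed, 13 tags with 4316 and 10186 reads counted for both miR-181b-5p and miR-181d-5p, and the fold change of miR-181b-5p turned to 1.73. Its odds ratios followed by construction, to 0.939 for miR-181d-5p over miR-181b-5p, 0.912 for miR-181c-5p over miR-181b-5p and 2.55 for miR-181b-5p over miR-181a-5p. With tags of at least 21 nt, miR-181c-3p turned to 2.38, the chromosome 8 3p reads to 2.32, and the odds ratio of chromosome 8 over chromosome 2 moved to 15.8. With the reference tags only, the odds ratio was 2.81 for chromosome 8 over chromosome 2, 0.930 (0.870 to 0.993) for miR-181d-5p over miR-181c-5p and 2.56 for miR-181c-5p over miR-181b-5p. Counting tags with 1 added base that the hairpin does not encode, chosen after seeing the data, gave 1.62 for miR-181d-5p.

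The number of arms called, 56 up and 49 down, became 21 and 113 relative to miRNA reads. It was 33 up and 34 down at an assumed coefficient of variation of 0.2, 5 up and 6 down at 0.4, and 23 up and 26 down among arms of at least 10 RPM. With tags of at least 21 nt 69 were called up and 30 down. Depth limits the arms under 1 RPM, where 3 reads are 0.159 and 0.142 RPM. Without replicates the spread between cultures is unknown.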

Other observations

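Tags of the miR-181 family with 1 added 3′ base that the hairpin does not encode were not among the exact matches counted above. For miR-181d-5p, reads with an added T numbered 4301 with DMSO and 10186 with AICAR, or 8.84% (95% Wilson interval 8.59 to 9.10) and 11.5% (11.3 to 11.7) of the reads with or without that base. Reads with an added A made up 8.58% (8.33 to 8.83) and 8.07% (7.89 to 8.26). The share with T was thus higher in the AICAR library and the share with A lower, each by more than counting error, with no replicate to set against it.

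Fewer such reads were counted for the other 5p miRNAs. An added T was found on 1.11% and 1.88% of miR-181c-5p reads and an added A on 0.499% and 1.10%. For miR-181b-5p an added T made up 1.94% and 3.11% and an added A 5.67% and 3.88%, and for miR-181a-5p an added T made up 1.62% and 2.69%. Mir181b-2 encodes a T after the 24 nt tag of miR-181b-5p, so its 179 and 170 reads with that T are left out of its share. The shares with T of miR-181b-5p and miR-181d-5p are therefore not measured alike. The share with T was higher in the AICAR library in all 4 5p miRNAs, although the intervals of both libraries overlapped for 3 of them, miR-181a-5p, miR-181b-5p and miR-181c-5p.

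Reads from the strand opposite to a miR-181 hairpin were nearly absent. Only Mir181a-2 had any, with 1 read with DMSO and 3 reads with AICAR on 2 tags.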
